A study of Mus musculus with 9 samples.

Results

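Metabotropic receptors for glutamate and GABA were described through 8 genes, Gabbr1 and Gabbr2 of the GABA-B receptor and Grm2, Grm3, Grm4, Grm5, Grm7 and Grm8 of the metabotropic glutamate receptors, out of 24487 rows of the deposited expression table. They were taken by exact match of the gene symbol, each matched 1 row, and the other genes of the glutamate receptor family are not analysed here. RNA sequencing was done on 4 libraries of midbrain dopaminergic neurons and on 5 libraries of whole midbrain, all from mice of the C57BL/6 strain. Age, sex, any transgene and the way the dopaminergic RNA was isolated are not given in the labels. The name of the deposited table holds the term bacTRAP, a method that pulls down tagged ribosomes of a chosen cell type with their RNA, and if it was used here, RNA on ribosomes was set against RNA of the whole tissue. Values are FPKM, fragments scaled by transcript length and by mapped reads. Comparisons of level between genes rest on that length scaling, which was not tested here.

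These receptors are slow relatives of the ion channel receptors: they signal through G proteins. Metabotropic glutamate receptors fall into group I, which acts through Gq and phospholipase C, and groups II and III, which act through Gi/o and lower cyclic AMP. Many group II and III receptors sit on axon terminals and reduce transmitter release, and the group II receptor of Grm3 is also well known from astrocytes. The GABA-B receptor is a pair of unlike subunits, in which GABBR1 binds GABA and GABBR2 carries the receptor to the surface and couples it to Gi/o. In dopaminergic neurons it is known for opening GIRK potassium channels and slowing firing.

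On FPKM as deposited, the members split by transmitter. Both GABA-B genes rose in dopaminergic neurons, although not as TPM or under quantile normalization, and all 6 glutamate receptor genes fell, with a mean level between 13.3 percent (Grm3) and 64.9 percent (Grm4) of that in whole midbrain. All 8 passed the test (limma on log2(FPKM + 1), Benjamini-Hochberg adjusted p under 0.05 over all genes), where 74.2 percent of the 13106 genes tested passed, 38.3 percent higher and 36.0 percent lower. The FPKM of the groups did not overlap for any of the 8, as for 64.4 percent of all genes tested. Of the members, 4 (Grm3, Grm5, Grm7 and Grm8) were at least 2-fold lower on the log2(FPKM + 1) scale, against 16.7 percent of all genes, and neither GABA-B gene was 2-fold higher, as 15.1 percent of all genes were. The median change over all genes on that scale was 0.04. The rise of the GABA-B genes depended on how libraries were scaled: when FPKM was rescaled to TPM, Gabbr1 and Gabbr2 stood at -0.046 and -0.28 (limma adjusted p = 0.608 and 0.188), beside a median of -0.55 over all genes, which puts them 0.50 and 0.27 above that median. Under quantile normalization they stood at -0.056 and 0.03 (limma adjusted p = 0.498 and 0.862), beside a median of 0.11, or -0.16 and -0.07 relative to it. Grm2 stood at -0.05 there (limma adjusted p = 0.758), or -0.15 relative to that median, and so was not apart from the GABA-B genes.

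**Figure D1:**
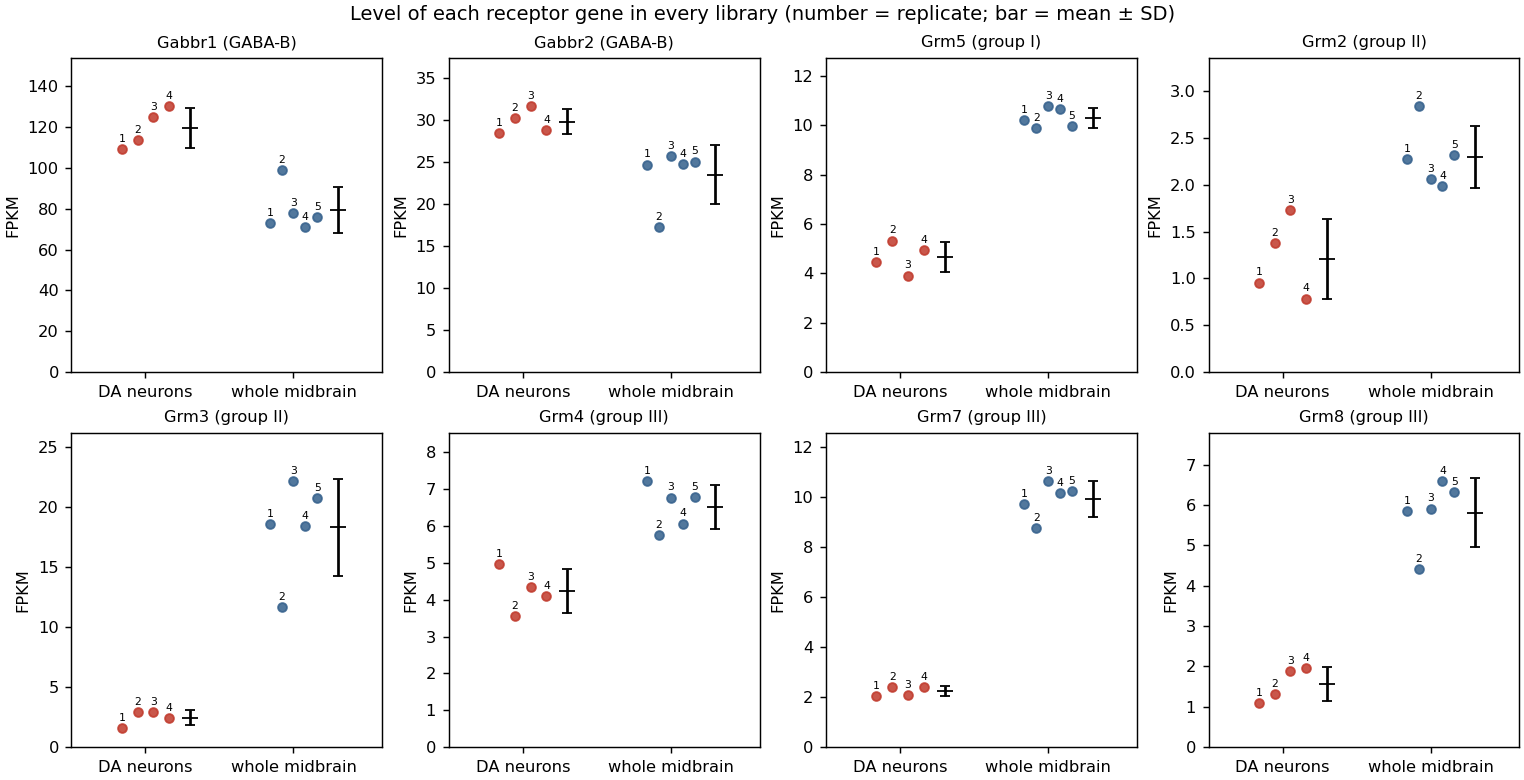
FPKM (vertical axes, linear from 0) of the 8 receptor genes in each library, with 4 dopaminergic neuron libraries on the left and 5 whole midbrain libraries on the right of each panel; small numbers are replicates and bars give mean ± SD. The groups are apart in every panel, and whole midbrain library 2 lies away from its group for Gabbr1 (98.9 FPKM) and Gabbr2 (17.2 FPKM).

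The labels were checked first. Th, which makes dopamine's precursor, was at 1491 to 1722 FPKM in dopaminergic libraries, where whole midbrain had 43.7 to 51.5 FPKM, and all 8 dopaminergic markers rose. Summed over 10 astrocyte markers, FPKM was 167 to 191 in dopaminergic neurons and 778 to 1089 in whole midbrain, and over 8 oligodendrocyte markers it was 165 to 280 in dopaminergic neurons and 2807 to 3316 in whole midbrain. The sums for 8 microglial markers were 4.52 to 8.22 in dopaminergic and 110 to 130 in whole midbrain libraries. Endothelial markers (5 genes) summed to 0.589 to 1.63 in dopaminergic and 62.2 to 108 in whole midbrain libraries, and those of oligodendrocyte precursors (3 genes) to 0.987 to 1.79 in dopaminergic and 8.97 to 14.2 in whole midbrain libraries. All of these markers fell and none was listed at 0 in every dopaminergic library. Depth was roughly estimated at about 47.2 to 62.6 megareads for dopaminergic and 16.2 to 33.6 megareads for whole midbrain libraries. By that estimate the value with the fewest reads behind it, Grm2 in whole midbrain library 3, rests on about 164. Total FPKM per library was 506466 to 521822 in dopaminergic neurons, 409130 in whole midbrain library 2 and 309275 to 313252 in the rest of whole midbrain. Whole midbrain library 2 stood apart, with a correlation of 0.903 to 0.906 across genes to the rest of its group, where the rest reached 0.947 to 0.962 and dopaminergic libraries 0.990 to 0.991. Whether each library came from another animal is not stated, and p-values here rest on the spread among these libraries, part of which may be technical.

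The starts of both GABA-B genes and of the gene with the largest fall, Grm3, are shown so that the genes that moved in opposite directions can be read side by side. The 250 bases before each annotated start are from RefSeq (GRCm38.p6), read along the gene's strand, with GC boxes (GGGCGG, or CCGCCC where it lies on the other strand) in capitals. The windows are chr17:37045716-37045965 (plus strand) for Gabbr1, chr4:46991715-46991964 (minus strand) for Gabbr2 and chr5:9725353-9725602 (minus strand) for Grm3, and all 3 adjoin the start of the gene's span in the deposited table.
Gabbr1: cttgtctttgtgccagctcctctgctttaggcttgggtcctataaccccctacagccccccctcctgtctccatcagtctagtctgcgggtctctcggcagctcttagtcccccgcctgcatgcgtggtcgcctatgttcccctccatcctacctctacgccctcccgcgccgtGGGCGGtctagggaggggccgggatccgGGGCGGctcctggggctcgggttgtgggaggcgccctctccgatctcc
Gabbr2: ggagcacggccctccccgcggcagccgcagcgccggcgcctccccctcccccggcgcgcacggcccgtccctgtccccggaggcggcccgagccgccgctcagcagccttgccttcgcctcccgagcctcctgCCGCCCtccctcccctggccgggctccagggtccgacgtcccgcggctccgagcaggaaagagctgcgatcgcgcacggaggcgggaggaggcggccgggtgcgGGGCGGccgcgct
Grm3: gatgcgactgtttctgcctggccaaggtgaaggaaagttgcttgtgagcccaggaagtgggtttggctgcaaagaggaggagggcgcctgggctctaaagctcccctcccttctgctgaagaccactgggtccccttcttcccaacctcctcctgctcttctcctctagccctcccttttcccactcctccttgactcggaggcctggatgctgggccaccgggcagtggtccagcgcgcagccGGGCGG
The Gabbr2 window was the richest of the 3 in G and C, at 80.8 percent with 37 CG pairs, and 99.1 percent of all 32851 windows held no more G and C. The Gabbr1 window held 66.0 percent G and C and 16 CG pairs, and the Grm3 window 62.4 percent and 8, where the median of all windows was 52.4 percent and 6. GC boxes numbered 2 in Gabbr1, 2 in Gabbr2 and 1 in Grm3, and 32.7 percent of all windows held at least 1. A full cyclic AMP response element (TGACGTCA, the same on both strands, in 1.55 percent of all windows) and a TATA box (TATAAA on either strand, 12.4 percent) were found in none of these 3 windows. Of the 8 members 6 are in the promoter table, and Grm4 and Grm5 are not.

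Gabbr1 encodes the subunit that binds GABA (chromosome 17, 37045966 to 37074305, mm10, plus strand, 22 merged exons). It had 109, 114, 125 and 130 FPKM in dopaminergic libraries 1 to 4, against 72.8, 98.9, 77.9, 70.9 and 76.0 FPKM in whole midbrain libraries 1 to 5. It was thus the most abundant member in every library, and every dopaminergic library lay above the highest whole midbrain library. The means were 120 ± 9.85 FPKM (SD, n = 4) in dopaminergic neurons and 79.3 ± 11.3 (SD, n = 5) in whole midbrain, which is 1.51-fold, with a log2 fold change of 0.59 ± 0.11 (SE) and adjusted p = 0.00063 (limma). Across all the alternatives the adjusted p ran from 9.1e-07 to 0.608.

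Gabbr2 encodes the subunit that couples to the G protein (chromosome 4, 46663898 to 46991714, minus strand, 21 merged exons). Its levels were 28.5, 30.3, 31.7 and 28.9 FPKM in the dopaminergic libraries and 24.7, 17.2, 25.7, 24.8 and 25.1 FPKM in whole midbrain. The groups were separate but close, with 28.5 FPKM as the lowest dopaminergic and 25.7 FPKM as the highest whole midbrain value. The means of 29.8 ± 1.48 FPKM in dopaminergic and 23.5 ± 3.54 FPKM in whole midbrain libraries differed 1.27-fold, with a log2 fold change of 0.34 ± 0.12 (SE) and adjusted p = 0.0206 (limma). Without whole midbrain library 2, the one at 17.2 FPKM, the log2 fold change was smaller, at 0.24 (limma adjusted p = 0.00097). Besides the 2 scalings above, the call was lost without dopaminergic library 3 (limma adjusted p = 0.0581) and under upper-quartile scaling (adjusted p = 0.542), in a range over the alternatives from 0.00097 to 0.862.

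Since the receptor needs both subunits, their ratio within each library was compared, which no scaling factor of a library can change. Gabbr2 was at 0.261, 0.267, 0.254 and 0.221 of the Gabbr1 level in dopaminergic libraries, against 0.340, 0.174, 0.330, 0.350 and 0.330 in whole midbrain. The 4 dopaminergic values lay below whole midbrain libraries 1, 3, 4 and 5 and above library 2. The difference of -0.24 in mean log2 ratio did not pass (two-sided exact permutation test, p = 0.302, n = 4 and 5). Without library 2 it was -0.43 with p = 0.0286 (exact, the smallest p that 4 against 4 libraries allow). That library stands out by this same ratio, so no conclusion is drawn from that p. Leaving out any other single library gave exact p from 0.321 to 0.661.

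Grm5, the group I member, couples to Gq and calcium release (chromosome 7, 87584168 to 88135063, plus strand). It had 4.45, 5.32, 3.90 and 4.93 FPKM in dopaminergic neurons, against 10.2, 9.89, 10.8, 10.7 and 9.97 FPKM in whole midbrain. The whole midbrain values varied least of all members in that group, with an SD of 3.90 percent of the mean, and the dopaminergic values were near 45.1 percent of them. The log2 fold change was -1.01 ± 0.09 (SE; limma adjusted p = 2.3e-06), and it kept its sign and its call in all 21 alternatives.

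Group II held the largest and one of the smaller changes among the glutamate receptors. Grm3 (chromosome 5, 9485236 to 9725352, minus strand) had 1.56, 2.90, 2.91 and 2.38 FPKM in dopaminergic neurons, against 18.5, 11.6, 22.1, 18.4 and 20.7 FPKM in whole midbrain. Its log2 fold change was -2.48 ± 0.19 (SE; limma adjusted p = 1.0e-06), lower than that of 97.3 percent of all genes tested, and the means of 2.44 ± 0.63 FPKM in dopaminergic and 18.3 ± 4.03 FPKM in whole midbrain libraries differed 7.50-fold. Grm2, the closest relative of Grm3 (chromosome 9, 106644534 to 106656109, minus strand), had the lowest mean of the members in both groups. It had 0.954, 1.37, 1.73 and 0.783 FPKM in dopaminergic neurons, against 2.28, 2.84, 2.06, 1.99 and 2.32 FPKM in whole midbrain, and its dopaminergic values spread most, with an SD of 35.2 percent of the mean. The groups did not overlap, but the highest dopaminergic value, 1.73 FPKM, and the lowest of whole midbrain, 1.99 FPKM, were close. Its log2 fold change of -0.59 ± 0.14 (SE; limma adjusted p = 0.00314) shrank to -0.05 under quantile normalization (adjusted p = 0.758, in a range from 5.5e-05 to 0.758), and its exons share 470 bases with the antisense gene Gm28111, whose reads cannot be told apart without strand.

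The group III genes encode presynaptic receptors that limit glutamate and GABA release. Grm7 (chromosome 6, 110645598 to 111567230, plus strand) had 2.03, 2.38, 2.07 and 2.40 FPKM in dopaminergic neurons, against 9.70, 8.75, 10.6, 10.1 and 10.2 FPKM in whole midbrain. The 2 groups were tight and far apart, and the log2 fold change of -1.76 ± 0.08 (SE) had the lowest adjusted p of the members (limma, 3.5e-08). Grm8 (chromosome 6, 27275121 to 28134369, minus strand) had 1.09, 1.31, 1.88 and 1.96 FPKM in dopaminergic neurons, against 5.85, 4.40, 5.91, 6.59 and 6.31 FPKM in whole midbrain, a log2 fold change of -1.42 ± 0.14 (SE; limma adjusted p = 6.1e-06). Grm4 (chromosome 17, 27422388 to 27503533, minus strand) fell least, to 4.96, 3.54, 4.34 and 4.09 FPKM in dopaminergic neurons, against 7.22, 5.76, 6.77, 6.07 and 6.80 FPKM in whole midbrain. Its log2 fold change was -0.53 ± 0.10 (SE; limma adjusted p = 0.00068), and the lowest whole midbrain value was above the highest dopaminergic one by less than 1 FPKM. The exons of Grm7 share 130 bases with the antisense gene Gm20387, and those of Grm8 share 96 with the microRNA gene Mir592.

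**Figure D2:**
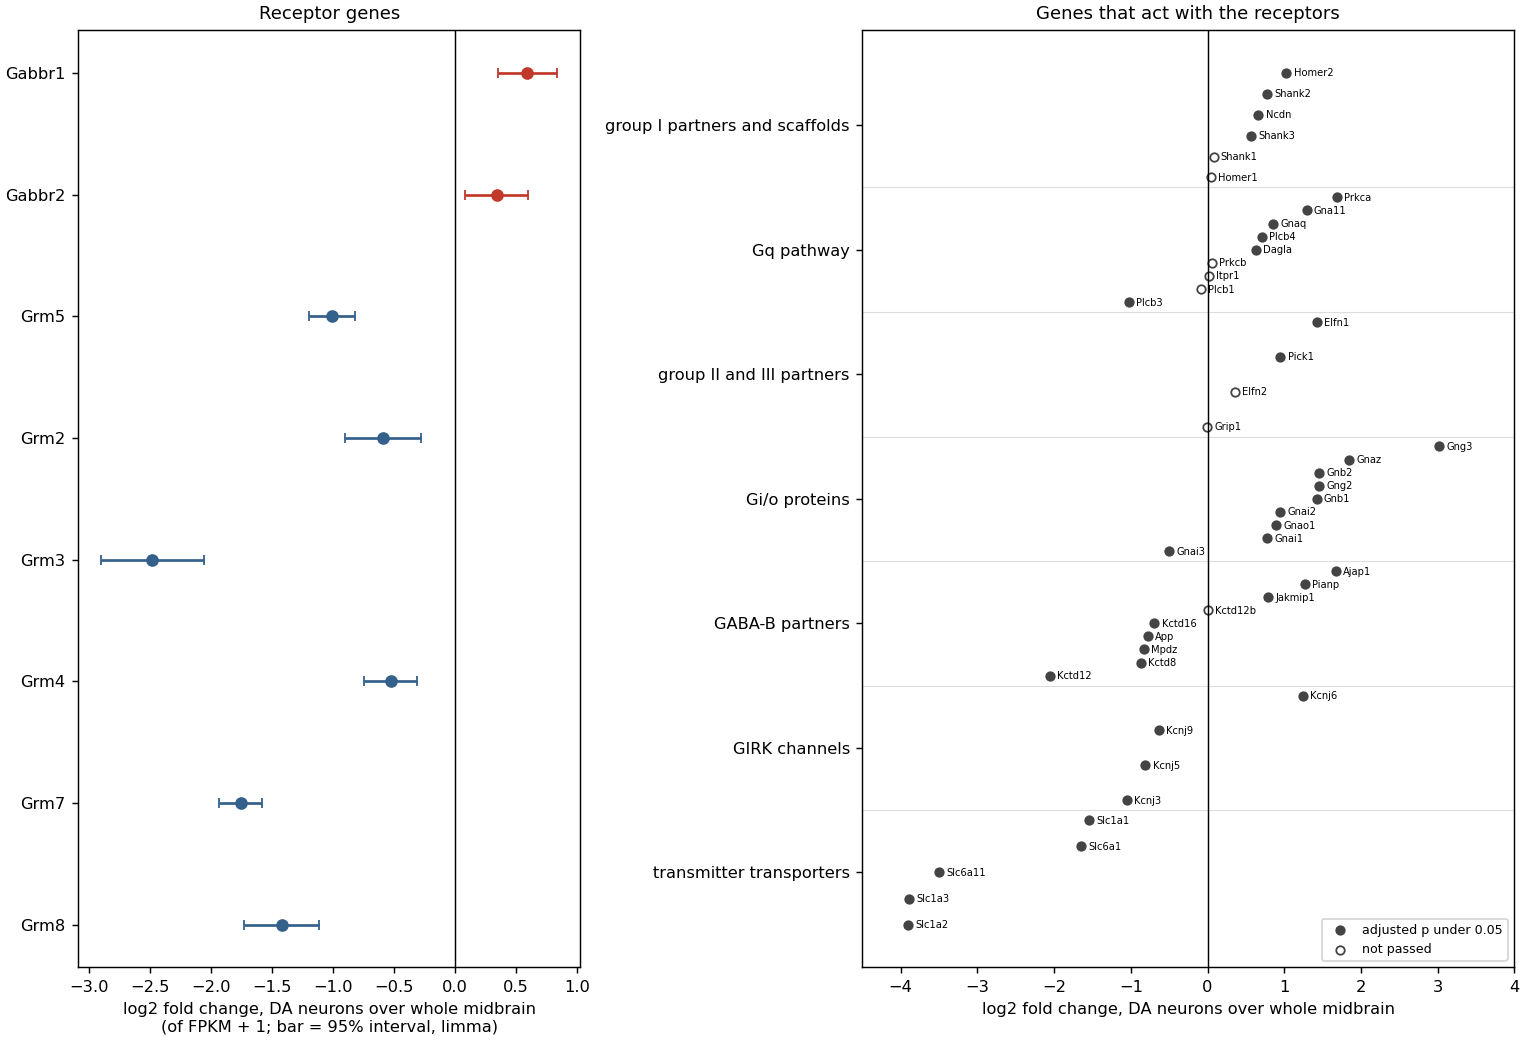
Log2 fold change of FPKM + 1, dopaminergic neurons over whole midbrain (horizontal axes), for the 8 receptor genes with 95% intervals from limma (left) and for 46 tested genes of 7 lists of genes that act with them (right); filled points on the right have an adjusted p under 0.05. Gabbr1 and Gabbr2 lie above 0 at 0.59 and 0.34 (but below 0 as TPM), the Grm genes run from -0.53 to -2.48, and Gng3 (3.02) and Slc1a2 (-3.90) mark the ends of the lists.

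Relatives changed by different amounts. Within-library ratios were compared for 5 pairs of members of the same subgroup (two-sided exact permutation tests, adjusted over the 5). All pairs but Gabbr2 with Gabbr1 were chosen after the values were seen. Their p-values are therefore descriptions, and no conclusion is drawn from them. Grm3 was 1.64 to 3.04 times Grm2 in dopaminergic libraries and 4.10 to 10.8 times Grm2 in whole midbrain, a 3.83-fold lower ratio (exact p = 0.0159, adjusted p = 0.0265). Grm7 was 0.410 to 0.672 of Grm4 in dopaminergic libraries and 1.34 to 1.67 times Grm4 in whole midbrain, a 2.88-fold lower ratio, and the order of the 2 genes was thus opposite in the groups. Grm8 over Grm4 was 0.219 to 0.479 in dopaminergic and 0.764 to 1.09 in whole midbrain libraries, 2.46-fold lower (both exact p = 0.00794, the smallest that 4 against 5 libraries allow, adjusted p = 0.0198). Grm7 over Grm8 did not pass the test, at 1.10 to 1.87 in dopaminergic and 1.54 to 1.99 in whole midbrain libraries (exact p = 0.302, adjusted p = 0.302), with a difference of -0.23 in mean log2 ratio.

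The make-up of the receptor set differed between the groups in ratios that no scaling factor of a library can change. An effect of transcript length is not such a factor. With length correction the log2 fold change moved from -1.01 to -0.68 for Grm5, from 0.59 to 0.79 for Gabbr1 and from -2.48 to -2.70 for Grm3. The sums and shares below are without that correction. The 2 GABA-B genes summed to 8.54 to 9.63 times the 6 Grm genes in dopaminergic libraries and to 1.78 to 2.68 times in whole midbrain, with means of 9.16 ± 0.45 (SD, n = 4) in dopaminergic neurons and 1.97 ± 0.40 (SD, n = 5) in whole midbrain. Of the summed Grm FPKM, Grm3 took 10.4 to 17.3 percent in dopaminergic libraries and 26.9 to 38.0 percent in whole midbrain, where it was the most abundant Grm gene. Grm4 took 21.1 to 33.0 percent in dopaminergic and 11.3 to 13.4 percent in whole midbrain libraries, and Grm5 took 23.2 to 31.6 percent in dopaminergic and 17.7 to 22.8 percent in whole midbrain libraries. Grm7 took 12.3 to 14.5 percent in dopaminergic and 18.0 to 20.2 percent in whole midbrain libraries, and the shares of Grm2 and Grm8 overlapped between the groups.

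**Figure D3:**
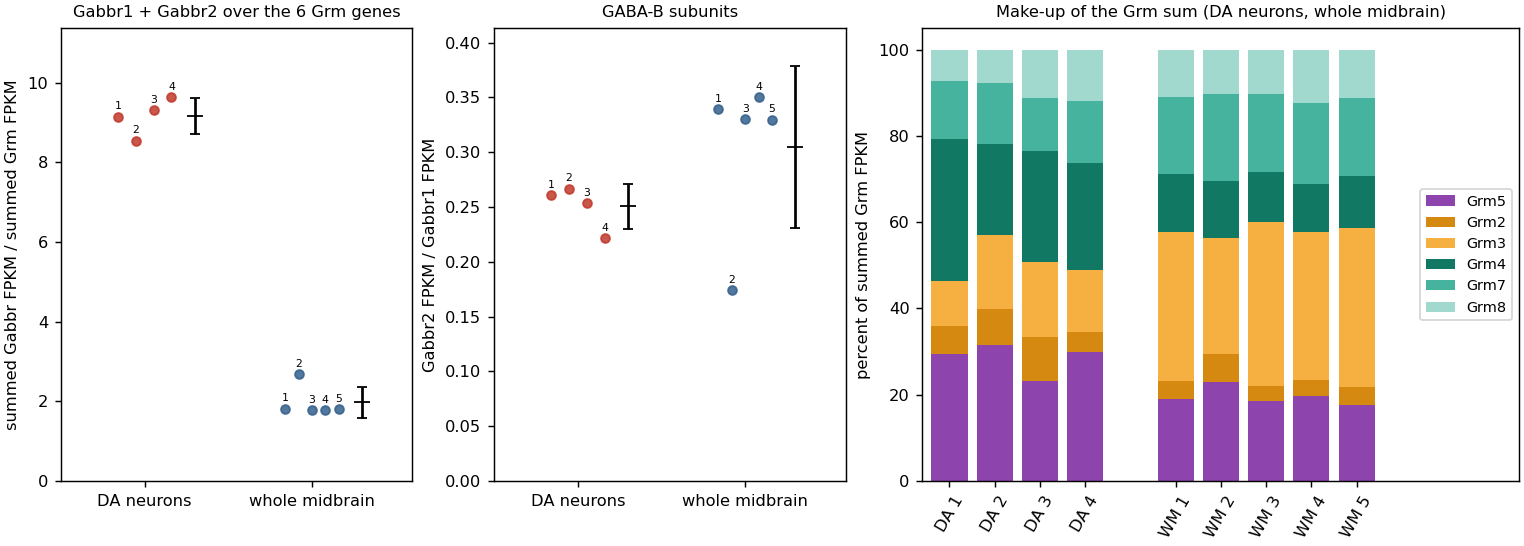
Summed FPKM of Gabbr1 and Gabbr2 over the summed FPKM of the 6 Grm genes (left), Gabbr2 over Gabbr1 (middle) and the percent of the summed Grm FPKM held by each Grm gene (right), per library, with 4 dopaminergic neuron libraries (DA) left of 5 whole midbrain libraries (WM); bars in the left and middle panels give mean ± SD and small numbers are replicates. The left ratio is 8.54 to 9.63 in dopaminergic libraries and 1.78 to 2.68 in whole midbrain, and the middle ratio overlaps only through whole midbrain library 2 at 0.174.

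In dopaminergic neurons the order of mean FPKM was Gabbr1, Gabbr2, Grm5, Grm4, Grm3, Grm7, Grm8 and Grm2. The ranges of Grm5 and Grm4, of Grm3 and Grm7, and of Grm8 and Grm2 overlapped. Within libraries, Grm5 was above Grm4 in 2 of 4, Grm3 above Grm7 in 2 of 4 and Grm8 above Grm2 in 3 of 4. The order of neighbours was not tested. In whole midbrain the order was Gabbr1, Gabbr2, Grm3, Grm5, Grm7, Grm4, Grm8 and Grm2. There the ranges of Gabbr2 and Grm3, of Grm5 and Grm7, and of Grm4 and Grm8 overlapped, although Gabbr2 was above Grm3 in 5 of 5 libraries. Gabbr1, Gabbr2, Grm8 and Grm2 held the same rank by mean in both groups, and the other 4 members did not.

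Markers of other cells moved in the same direction as the Grm genes. The median astrocyte marker stood at 4.93 to 7.18 percent of its whole midbrain mean across the dopaminergic libraries, and the range over the 10 markers ran from 3.42 percent for Gja1 to 28.9 percent for Aldoc. Grm3 stood at 8.54 to 15.9 percent, above the median astrocyte marker in each of the 4 libraries. The median of 4 GABAergic neuron markers was 15.8 to 21.6 percent and that of the 2 glutamatergic markers 12.3 to 21.2 percent, beside 20.6 to 24.2 percent for Grm7 and 18.7 to 33.7 percent for Grm8. Summed FPKM was 56.3 to 72.2 in dopaminergic neurons against 325 to 423 in whole midbrain for the GABAergic markers, and 10.2 to 15.6 in dopaminergic and 52.7 to 72.0 in whole midbrain libraries for the glutamatergic ones, all of which fell. Grm5, Grm2 and Grm4 kept more, at 37.9 to 51.6, 34.1 to 75.4 and 54.3 to 76.1 percent. The part of these cells in the levels of the Grm genes was not tested, and in such bulk libraries fewer cells of a type and less RNA per cell cannot be told apart.

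**Figure D4:**
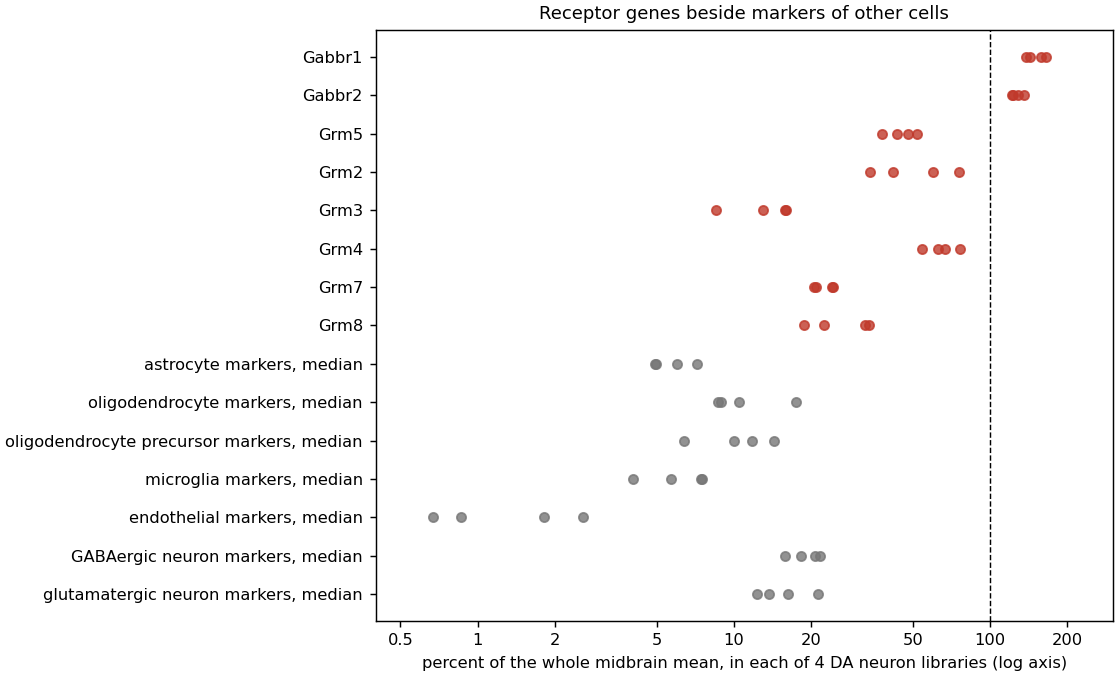
Level in each of the 4 dopaminergic neuron libraries as a percent of the whole midbrain mean (horizontal log axis), for the 8 receptor genes (red) and for the median gene of 7 marker lists of other cells (grey); the dashed line marks 100 percent. Grm4, Grm2 and Grm5 lie between 34.1 and 76.1 percent, and Grm3, at 8.54 to 15.9 percent, lies lowest of the receptor genes.

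Genes that carry the receptors' signals were read from 7 lists with 46 tested genes, of which 23 rose, 15 fell and 8 did not pass. Over all 13106 genes tested, 38.3 percent rose and 36.0 percent fell. The counts of each list below are to be read beside those shares, and no list was tested as a set (means ± SD below are over 4 dopaminergic and 5 whole midbrain libraries). The lists were chosen with earlier results of these data known, so their counts and medians are descriptions only. Of 9 Gi/o protein genes, which serve groups II and III and the GABA-B receptor, 8 rose and 1 fell, and their median log2 fold change was 1.42 beside 0.04 over all genes tested (6 rose and 1 fell as TPM, and 5 and 1 under quantile normalization). Gng3, a gamma subunit of neurons, was at 1253 ± 91.4 FPKM in dopaminergic libraries, where whole midbrain had 154 ± 16.6, and Gnaz, an alpha subunit that lowers cyclic AMP, at 42.1 ± 5.44 in dopaminergic and 11.0 ± 1.85 in whole midbrain libraries. The log2 fold changes of Gng3 and Gnaz were 3.02 and 1.85 (limma adjusted p = 7.1e-09 and 7.6e-07). Gnai3, a Gi alpha subunit, fell by 0.50 on the log2 scale, to 8.10 ± 1.44 FPKM in dopaminergic neurons, where whole midbrain had 11.9 ± 1.79 (limma adjusted p = 0.00725).

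Of 4 GIRK channel genes, the potassium channels that GABA-B receptors open, Kcnj6 rose and the other 3 fell. Kcnj6 was at 30.6 ± 2.51 FPKM in dopaminergic libraries, where whole midbrain had 12.3 ± 0.69. Kcnj3, a partner subunit in most neurons, was at 5.96 ± 0.40 in dopaminergic and 13.5 ± 1.57 in whole midbrain libraries. The subunit gene Kcnj5 was at 0.412 ± 0.11 in dopaminergic and 1.49 ± 0.35 in whole midbrain libraries, and its call was lost under quantile normalization (limma, adjusted p between 7.1e-06 and 0.522 over all alternatives). The log2 fold changes of Kcnj6, Kcnj3 and Kcnj5 were 1.25, -1.06 and -0.81 (limma adjusted p = 2.2e-07, 3.0e-06 and 0.000232).

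Proteins that bind the GABA-B receptor went both ways, with 3 of 9 genes higher, 5 lower and a median of -0.69 (2 and 5 as TPM). Ajap1 and Pianp, membrane proteins that bind the outer domain of GABBR1, were at 23.0 ± 2.23 FPKM in dopaminergic libraries, where whole midbrain had 6.52 ± 0.33, and at 130 ± 14.2 in dopaminergic and 53.0 ± 3.18 in whole midbrain libraries. Kctd12, an auxiliary subunit that speeds desensitization, was at 2.18 ± 0.42 in dopaminergic and 12.1 ± 1.20 in whole midbrain libraries, and Kctd8 of the same family at 1.08 ± 0.12 in dopaminergic and 2.81 ± 0.53 in whole midbrain libraries. The log2 fold changes of Ajap1, Pianp, Kctd12 and Kctd8 were 1.67, 1.27, -2.05 and -0.86 (limma adjusted p at most 6.5e-05).

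Of 6 tested partners and scaffolds of group I receptors, 4 rose and none fell, but as TPM none rose and 2 fell. With length correction 6 rose and 0 fell. The minimum mean of 1 FPKM left out Homer3 and Grasp of this list, and without that filter 1 gene of the list fell. Homer3 was at 0.06 to 0.26 FPKM in dopaminergic and 0.47 to 1.57 in whole midbrain libraries, while the groups overlapped for Grasp. Homer2, which links these receptors to calcium stores, was at 10.5 ± 0.66 FPKM in dopaminergic libraries, where whole midbrain had 4.70 ± 1.0, and the postsynaptic scaffold Shank2 at 6.78 ± 0.62 in dopaminergic and 3.58 ± 0.71 in whole midbrain libraries, log2 fold changes of 1.03 and 0.78. The calls of both were lost as TPM (limma adjusted p = 0.0554 and 0.245, the highest over their alternatives, which began at 3.4e-07 and 8.3e-06). Of 9 genes of the Gq pathway 5 rose and 1 fell (2 and 4 as TPM, 8 and 1 with length correction). Prkca, a protein kinase C, and Gna11, a Gq-type alpha subunit, were at 39.4 ± 5.22 FPKM in dopaminergic and 11.5 ± 1.32 in whole midbrain libraries and at 38.6 ± 3.57 in dopaminergic and 15.3 ± 2.45 in whole midbrain libraries. The phospholipase Plcb3, the gene that fell, was at 0.602 ± 0.21 in dopaminergic and 2.27 ± 0.36 in whole midbrain libraries. The log2 fold changes of Prkca, Gna11 and Plcb3 were 1.69, 1.29 and -1.03 (limma adjusted p at most 3.5e-05).

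Of 4 partners of group II and III receptors 2 rose and none fell (2 and 1 as TPM, 3 and 0 with length correction). Elfn1, an adhesion protein that binds group III receptors across the synapse, was at 24.4 ± 2.91 FPKM in dopaminergic libraries, where whole midbrain had 8.50 ± 1.14, and Pick1, a scaffold that binds the product of Grm7, at 17.9 ± 1.80 in dopaminergic and 8.77 ± 0.84 in whole midbrain libraries, log2 fold changes of 1.42 and 0.95 (limma adjusted p = 1.3e-06 and 6.1e-06). All 5 transporters that clear glutamate and GABA fell. The astrocyte transporters Slc1a2 and Slc1a3 were at 17.9 ± 1.87 FPKM in dopaminergic libraries, where whole midbrain had 287 ± 56.1, and at 0.923 ± 0.45 in dopaminergic and 27.0 ± 1.63 in whole midbrain libraries, log2 fold changes of -3.90 and -3.89, and both are also on the list of astrocyte markers.

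Among 92 genes of these lists, the 2 whose log2 levels followed each member most closely over the 9 libraries were found by Pearson's r, as a description, since the libraries share the split into groups and their depth. They were Slc1a2 and Flt1 for Grm7 (both 0.997), App and Aldoc for Grm3 (0.995 and 0.993), Slc17a6 and Kctd12 for Grm5 (0.990 and 0.989) and Gpr17 and App for Grm8 (0.987 and 0.986). For Grm4 they were Mpdz and Tmem119 (0.937 and 0.926) and for Grm2 Aif1 and Cnp (0.891 and 0.871). The genes nearest Gabbr1 were Gnb2 and Jakmip1 (0.972 and 0.960), and those nearest Gabbr2 were Shank3 and Plcb4 (0.960 and 0.925).

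**Figure D5:**
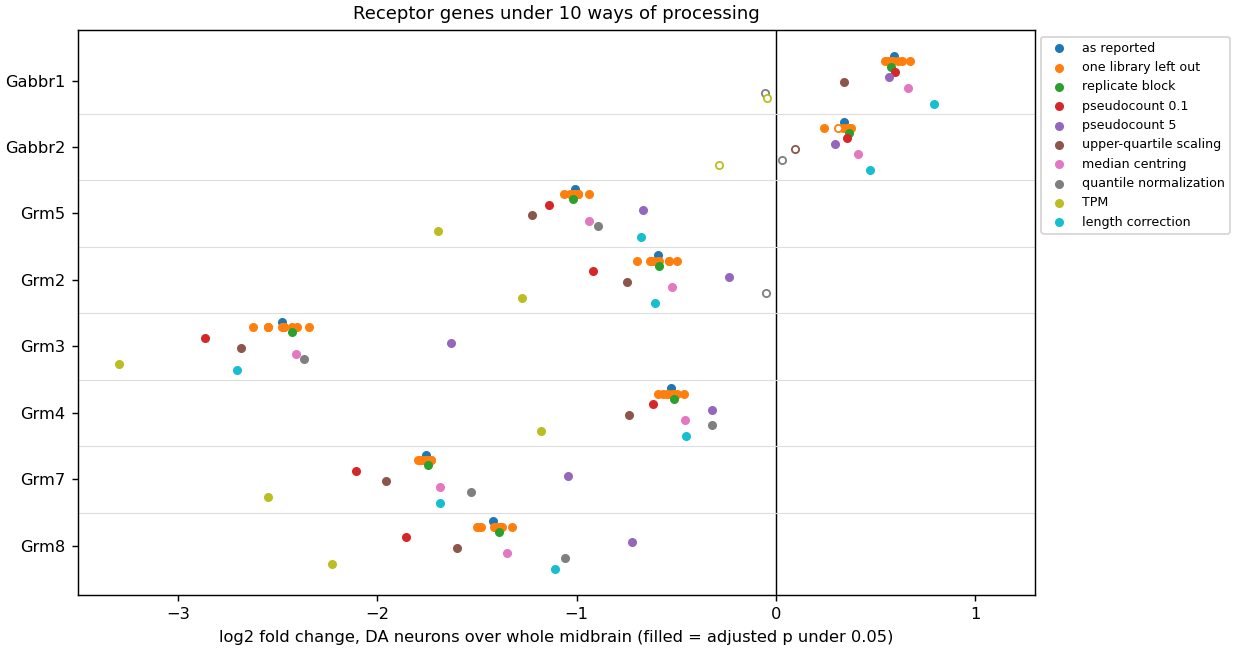
Log2 fold change of the 8 receptor genes, dopaminergic neurons over whole midbrain (horizontal axis), as reported and under 9 other ways of processing (colours; 9 points where each library was left out in turn); filled points have an adjusted p under 0.05. The Grm genes stay below 0 in all of these settings, Grm2 only at -0.05 and unfilled under quantile normalization. Gabbr1 and Gabbr2 reach -0.046 and -0.28 as TPM, and Gabbr1 reaches -0.056 under quantile normalization.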

How the data were processed

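Per the labels' protocols, cDNA was amplified from small amounts of total RNA, sheared and sequenced as single reads. The authors deposited FPKM; the submitters' processing notes name TopHat2 2.0.8, Cufflinks 2.1.1 and mm10. The sources used here do not give annotation, options or strand handling. Deposited values carry at most 6 significant digits in dopaminergic and 10 in whole midbrain libraries, so the handling of files cannot be told apart from the groups.

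The 13106 rows with a mean of at least 1 FPKM were fitted on the log2(FPKM + 1) scale with limma (version 3.58.1, R 4.3.3). The moderated two-sided test used a trend of variance on level, with 7 residual degrees of freedom and about 3.00 from the prior, and Benjamini-Hochberg adjustment over all rows. Fold changes on that scale understate those of low genes. FPKM are not counts, so no count model was used. The fit was also run on simulated data with independent noise. Those data held no difference of scaling between libraries, so the run cannot check calls that depend on scaling. Summaries used Python 3.11.15 with NumPy 2.4.6, pandas 2.3.3 and matplotlib 3.10.9. Depth is the estimate on which the largest number of single-exon receptor genes agreed within 1 percent as 1, 2 or 3 reads, with 200-base fragments, and is rough. Only 2 to 7 genes agreed per library, the gene that set the estimate included. Exons are from GENCODE for GRCm38. Named were all members, Th as the check, and in each list up to 2 rises and 2 falls of largest size. For each member the 2 most correlated list genes were named too. App, Gja1, Aldoc, Homer3 and Grasp are named as list genes. Some list genes are not reported here and not counted. Members and lists were chosen with earlier results of these data known, and every ratio pair but Gabbr2 with Gabbr1 after the values were seen. Alternatives were pseudocounts of 0.1 and 5, no filter, a minimum mean of 5 FPKM, 4 scalings, no trend, library weights, length correction by loess (span 0.5), a replicate block and leaving out each library.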

Additional observations from a re-analysis of the deposited data

Results flagged for a closer look

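In 56 sets of 4 or 5 libraries, a single library lay far from the rest of its group in 9, where chance gives about 1 in 20. Of these 7 were whole midbrain library 2. It held 98.9 FPKM of Gabbr1, above the rest of its group, and 17.2 FPKM of Gabbr2, below the rest, so that Gabbr2 over Gabbr1 was 0.174 there. It was also lowest for Gna11 (11.0 FPKM), Gnaz (7.77), Plcb3 (1.65) and Slc1a2 (186). In dopaminergic neurons, library 3 was highest for Gnaz (50.3 FPKM) and library 4 highest for Slc1a3 (1.59).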

How the results depend on the processing

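Grm3, Grm4, Grm5, Grm7 and Grm8 stayed lower and past the threshold in every alternative that tested them, and Grm2 in all of its own but quantile normalization; a minimum mean of 5 FPKM left out Grm2 and Grm8. As TPM, where the median of all genes moved to -0.55, 2248 genes were higher and 7393 lower (5014 and 4717 as reported), no member was higher (0 of 8) and 13 list genes were higher. With length correction 29 list genes were higher (23 as reported). Gabbr1 turned to -0.046 as TPM and -0.056 under quantile normalization, and Gabbr2 to -0.28 as TPM. Of the members, 0 were higher under quantile normalization and 1 under upper-quartile scaling, and leaving out libraries gave 1 to 2. A minimum mean of 5 FPKM left 2493 genes and 10 list genes lower, with fewer genes tested. The Gabbr2 to Gabbr1 difference ran from -0.43 to -0.18 on leaving out libraries. Same-numbered libraries were not treated as pairs, since the labels do not state whether they share an animal. The r of their deviations was -0.05 to 0.02, and no dopaminergic library correlated best with its own number. Such correlations cannot show whether animals were shared. With the replicate block 4554 genes, 2 members and 23 list genes were higher and 4355, 6 and 15 lower. For the scalings, the cause was not tested.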
